A study of Mus musculus with 14 samples.

Results

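The mitochondrial carrier family (Slc25) moves metabolites across the inner mitochondrial membrane, and the uncoupling proteins Ucp1, Ucp2 and Ucp3 belong to it by sequence. Most carriers are exchangers built on a shared fold of membrane-spanning helices, and in heart muscle the ADP/ATP carriers and the phosphate carrier supply the ATP synthase with its substrates and export the ATP it makes. Other members bring in acylcarnitines, glutamate, malate, cofactors and iron. The genes were taken as the rows of the count table whose symbol is Slc25a followed by a number, or Ucp1, Ucp2 or Ucp3, with a summed count of at least 50 over the 14 libraries. Of 47 such rows among 23337 genes, 39 met the minimum, and all 39 also passed the low-count filter of the test across all genes.

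Poly(A) RNA was sequenced from heart cardiomyocytes of 4-week-old Rosa-Cas9GFP mice, with Cas9 and GFP in the Rosa locus, injected on postnatal day 1 with an adeno-associated virus (AAV). The KO group (n = 7) received AAV-Ryr2gRNA, a virus named for a guide RNA against Ryr2, the calcium release channel of the sarcoplasmic reticulum. The Ctrl group (n = 7) received AAV-Cre, so that both groups carry the Cas9 allele and an AAV. The labels do not state whether the guide virus also expressed Cre, which promoters drove either virus or what share of cells was edited. Cells were isolated by Langendorff perfusion and sorted by fluorescence, and no label ties the numbered samples to separate animals, so each p-value rests on the spread among 7 samples a group, part of which may be technical.

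Ryr2 itself was lower in every KO library (lowest 225, median 324, highest 371 CPM, counts scaled to a common library size) than in any Ctrl library (602, 649 and 763 CPM), with a log2 fold change of -1.13 (SE 0.0977, edgeR quasi-likelihood test with Benjamini-Hochberg adjustment, adjusted p = 3.3e-07). Total counts ranged from 5689335 to 13165662 per library. Of 8 cardiomyocyte markers all were abundant and 5 were called lower in KO libraries, with a summed level of 81760 to 109747 CPM in KO libraries and 104122 to 122294 CPM in Ctrl libraries. Of 9 tested macrophage markers 3 were called higher, their list summing to 60.3 to 438 CPM in KO libraries and 23.7 to 114 CPM in Ctrl libraries. No tested fibroblast or endothelial marker was called. All 7 fibroblast markers had a positive fold change (median log2 fold change 0.72), and summed to 162 to 1231 CPM in KO libraries and 187 to 603 CPM in Ctrl libraries. The endothelial median was -0.09. Library indices 7 to 10 (KO 4 and 5, Ctrl 4 and 5) held the 4 highest sums of macrophage, of fibroblast and of endothelial markers. They also stood apart on the second principal component (24.2% of the variance). The labels name no batch for them. Log2 fold changes within these 4 and in the 10 remaining libraries are given beside the called members of the family named below.

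Across the family, 11 of the 39 genes were called lower and 6 higher in KO libraries at an adjusted p under 0.05. Among all 11170 genes tested 13.7% were called lower, 14.5% higher and 28.2% either way, so the family's share of lower calls (28.2%) was above the background and its share of higher calls (15.4%) near it. The median log2 fold change was -0.11 over the 39 genes, 0.01 over all genes tested and -0.27 over the 8 cardiomyocyte markers. Of these markers 5 were called lower, while Myh6 (-0.06), Actn2 (-0.05) and Tnnc1 (-0.12) were not called. Changes in cell make-up, in RNA per cell and in single genes cannot be told apart in such bulk samples. In 7 members every KO library lay below every Ctrl library, which held for 4.71% of all genes, and in 2 members every KO library lay above, which held for 5.84%. In library indices 7 to 10 alone 0 of the 39 genes were called higher (edgeR, 6 at an unadjusted p under 0.05) and 10 lower. Calls were fewer there over all genes too, with 689 higher and 777 lower, against 1621 and 1528 over all 14 libraries. That fit filtered genes anew, and without its number of tested genes these counts cannot be read as shares. The 6 members called higher over all 14 libraries kept a positive fold change in indices 7 to 10. Lower calls were concentrated among abundant members, and abundant genes in general were more often lower. Of the 13 members with a mean log2 CPM of 6 or more, 9 were lower and 1 higher, against 31.1% lower and 14.6% higher among the 2575 genes at that level. Of the 26 members below it, 2 were lower and 5 higher, against 8.47% and 14.5% of 8595 genes.

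**Figure D1:**
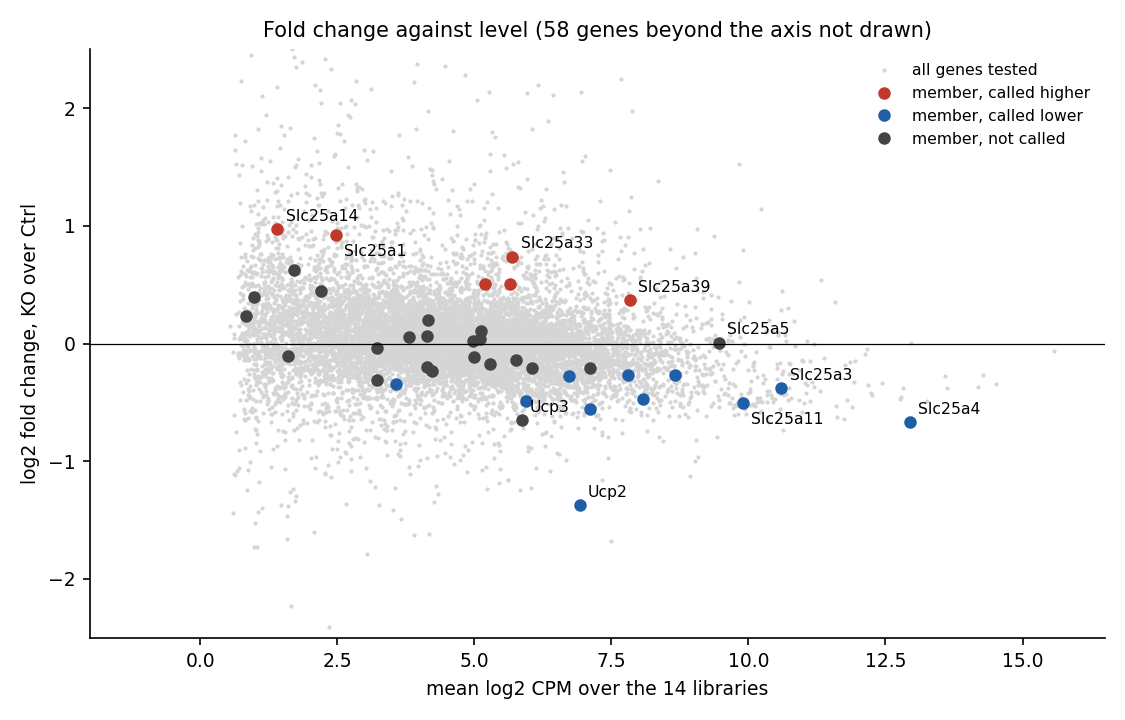
Log2 fold change of KO over Ctrl (vertical axis) against mean log2 CPM over the 14 libraries (horizontal axis) for all genes tested (grey) and for the 39 carriers and uncoupling proteins (coloured by call). Slc25a4 (-0.67) is the most abundant member and Ucp2 (-1.37) the lowest, and 5 of the 6 members called higher have a mean log2 CPM under 6.

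The summed level of the 39 genes was 11045 ± 1128 CPM in KO libraries and 15708 ± 1059 CPM in Ctrl libraries (SD, n = 7 each), or 70.3% of the Ctrl sum, and the ranges of 9549 to 12707 CPM and 13790 to 16892 CPM did not overlap. Slc25a4 alone made up 76.8% of that difference. Levels per kb of exon spanned from 8727 CPM per kb for Slc25a4 to 0.788 CPM per kb for Slc25a45 in Ctrl libraries. Behind Slc25a4 came the phosphate carrier Slc25a3 (1159 CPM per kb in Ctrl libraries), the 2-oxoglutarate/malate carrier Slc25a11 (600), the second ADP/ATP carrier Slc25a5 (566), the acylcarnitine carrier Slc25a20 (175) and the aspartate/glutamate carrier Slc25a12 (150). In KO libraries Slc25a5 (568 CPM per kb) stood above Slc25a11 (422), and Ucp2 ranked 19 of 39, against rank 10 in Ctrl libraries.

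Slc25a4 and Slc25a5 encode the ADP/ATP carriers ANT1, the main form of heart and skeletal muscle, and ANT2, a form of dividing and many other cells. Their coding sequences (GENCODE M21 on GRCm38, the build mm10 of the files; transcripts Slc25a4-201 on the minus strand of chromosome 8 and Slc25a5-201 on the plus strand of chromosome X) align without a gap over 894 bases before the stop codon. They differ at 202 of these bases, an identity of 77.4%, and the longest identical run is 20 bases. The first 120 coding bases are shown because they show how densely the bases fall by which reads of these genes can be told apart. Capitals mark the 26 bases at which they differ.
Slc25a4: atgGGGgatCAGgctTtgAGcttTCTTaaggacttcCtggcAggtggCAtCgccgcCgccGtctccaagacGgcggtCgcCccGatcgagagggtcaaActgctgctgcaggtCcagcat
Slc25a5: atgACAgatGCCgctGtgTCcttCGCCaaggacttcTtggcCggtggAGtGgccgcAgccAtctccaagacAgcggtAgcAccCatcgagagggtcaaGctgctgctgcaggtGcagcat
A read that covers more than 20 coding bases of either gene therefore holds at least 1 differing base. Among pseudogenes whose symbol starts with Slc25a, the annotation names a processed copy, Slc25a5-ps on chromosome 14, with which Slc25a5 may share reads. Copies of either gene under other symbols were not looked for.

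Slc25a4 (chromosome 8, 46207341 to 46211009, minus strand, mm10) was lower in every KO library than in any Ctrl library. Its lowest, median and highest levels were 5149, 5835 and 7574 CPM in KO libraries and 8308, 9675 and 10561 CPM in Ctrl libraries. The mean was 6072 ± 847 CPM in KO libraries and 9652 ± 710 CPM in Ctrl libraries (SD, n = 7 each), a log2 fold change of -0.67 (SE 0.0844, adjusted p = 1.9e-05, edgeR quasi-likelihood test), which was -0.64 in the 10 remaining libraries, and -0.80 in library indices 7 to 10.

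Slc25a5 (chromosome X, 36795652 to 36798806, plus strand) overlapped between the groups. It had 629, 689 and 830 CPM in KO libraries and 617, 661 and 837 CPM in Ctrl libraries (lowest, median, highest). The test gave a log2 fold change of 0.01 (SE 0.0787, edgeR adjusted p = 0.97) with a 95% interval of -0.16 to 0.17, and its sign changed with the tool and on leaving out single libraries.

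The Slc25a5 to Slc25a4 ratio, in counts per kb of exon within each library and so independent of library scaling, was higher in every KO library than in any Ctrl library. The geometric mean ratio was 0.104 in KO libraries and 0.0646 in Ctrl libraries, and the log2 ratio averaged -3.27 ± 0.233 in KO libraries and -3.95 ± 0.163 in Ctrl libraries (SD, n = 7 each). The difference of 0.69 had p = 0.00058 in a two-sided exact permutation test over 3432 assignments, the smallest it can give, and p = 0.0020 after adjustment over 7 paralog pairs. Slc25a5 thus made up 9.49 ± 1.38% of the summed Slc25a4 and Slc25a5 level per kb in KO libraries (7.61% to 11.3%) and 6.10 ± 0.645% in Ctrl libraries (5.29% to 6.91%). The difference in log2 ratio was 0.64 in the 10 remaining libraries, and 0.81 in library indices 7 to 10.

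**Figure D2:**
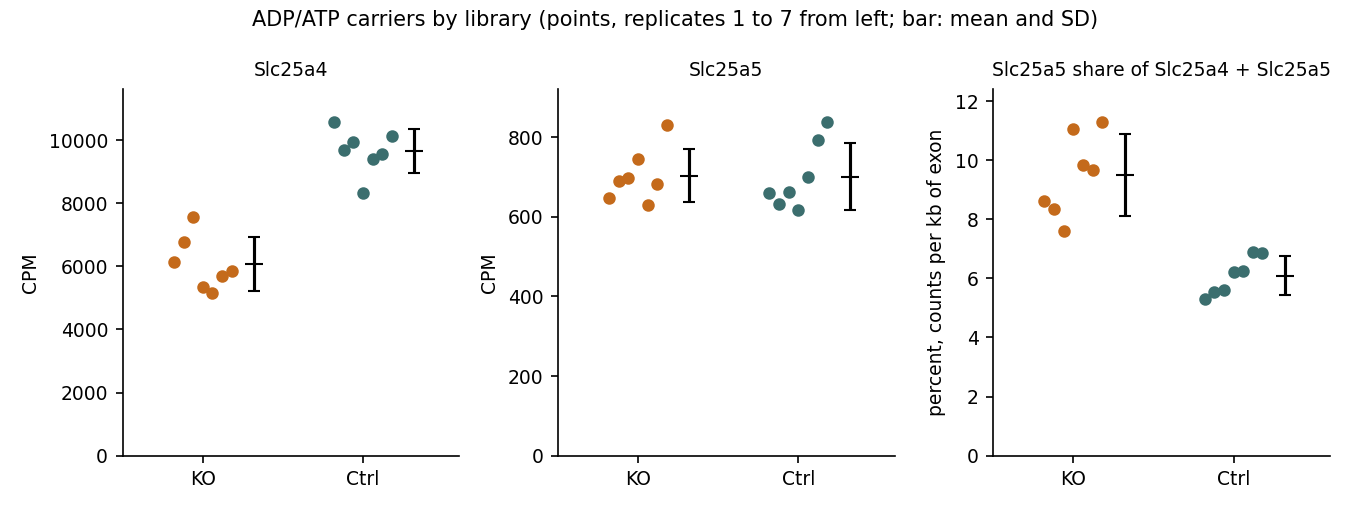
Levels of Slc25a4 and Slc25a5 in CPM, and the share of Slc25a5 in their summed counts per kb of exon in percent, for the 7 KO and 7 Ctrl libraries (points, with mean and SD). The groups separate for Slc25a4 and for the share (7.61% to 11.3% in KO, 5.29% to 6.91% in Ctrl) and overlap for Slc25a5.

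Of the whole family's level per kb, Slc25a4 held 66.5 ± 2.15% in KO libraries and 72.6 ± 0.914% in Ctrl libraries, Slc25a5 held 6.96 ± 0.928% in KO and 4.71 ± 0.492% in Ctrl libraries, and Slc25a3 held 10.9 ± 0.667% in KO and 9.64 ± 0.364% in Ctrl libraries (SD, n = 7 each). All 3 shares differed by the two-sided exact permutation test (p = 0.00058, 0.00058 and 0.0035, adjusted over the 3 shares 0.00087, 0.00087 and 0.0035). The shares are parts of the same whole, most of which is Slc25a4, so its lower level by itself raises the other shares. The 3 tests are therefore not independent. Slc25a3, which imports phosphate for ATP synthesis (chromosome 10, 91116578 to 91123963, minus strand), had a lower level in every KO library than in any Ctrl library. It had 1183, 1383 and 1545 CPM in KO libraries and 1562, 1766 and 1918 CPM in Ctrl libraries (log2 fold change -0.38, SE 0.0679, edgeR adjusted p = 4.9e-04). The value was -0.39 both in the 10 remaining libraries and in library indices 7 to 10. Counts per gene do not separate its alternative heart and general exons.

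The remaining tested members of the adenine nucleotide and phosphate class are the calcium-regulated ATP-Mg/phosphate carriers Slc25a23, Slc25a24 and Slc25a25, which set the adenine nucleotide pool of the matrix. Slc25a23 (chromosome 17, 57043711 to 57059863, minus strand) was higher in every KO library, with 48.3, 58.3 and 69.9 CPM against 38.5, 41.0 and 45.4 CPM in Ctrl libraries (log2 fold change 0.51, SE 0.0740, adjusted p = 7.2e-05, edgeR). Its log2 fold change was 0.59 in the 10 remaining libraries, and 0.26 in library indices 7 to 10, where the call was lost (edgeR adjusted p = 0.24). Slc25a25 and Slc25a24 were not called, at log2 fold changes of 0.06 and -0.11 with wide 95% intervals (-0.42 to 0.55 and -0.87 to 0.66). In this class 2 of 6 tested genes were lower and 1 higher, against 13.7% and 14.5% of all genes tested. The class median log2 fold change was -0.05. This median was -0.19 in the 10 remaining libraries and ranged from -0.20 (without KO 4) to 0.02 (without Ctrl 5) when 1 library was left out, so its sign was not stable.

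**Figure D3:**
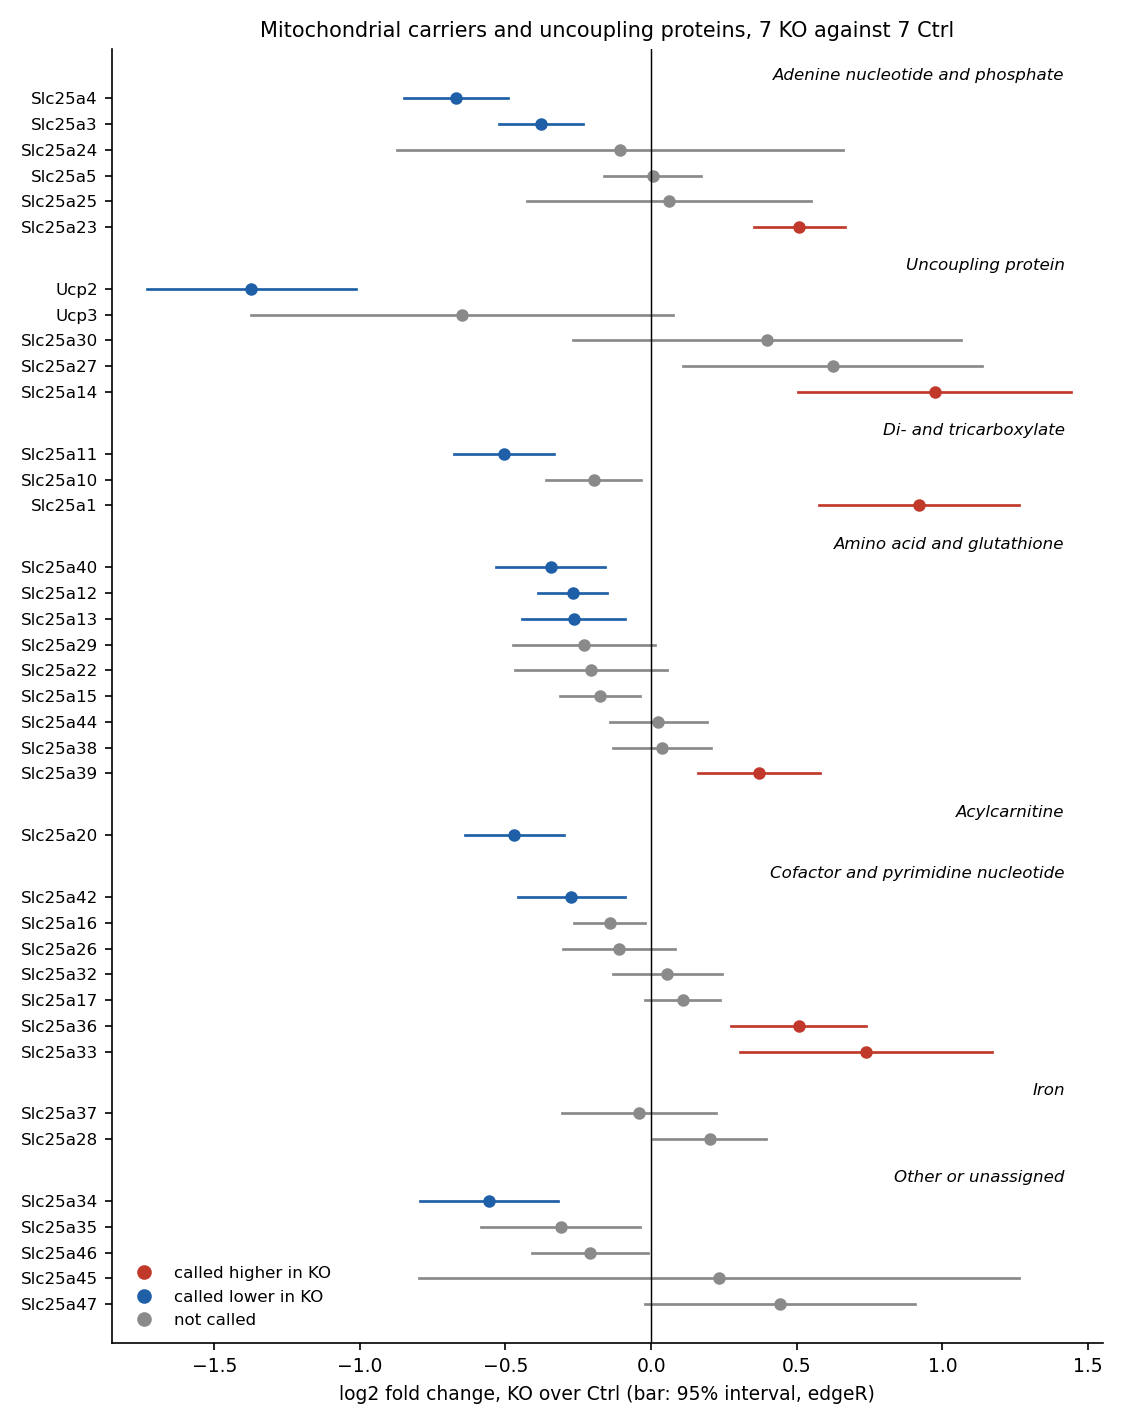
Log2 fold change of KO over Ctrl with its 95% interval (horizontal axis) for 38 of the 39 genes, grouped by substrate class and coloured by call. Each class with more than 2 tested genes holds both positive and negative values, from -1.37 for Ucp2 to 0.97 for Slc25a14.

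Uncoupling proteins dissipate the proton gradient or exchange small anions. Ucp1 drives heat production in brown fat, Ucp2 is found in many tissues and exports small carboxylates, and Ucp3 is typical of skeletal muscle and heart. Ucp2 (chromosome 7, 100493345 to 100502173, plus strand) had the lowest log2 fold change of the 39 genes. Its level was 50.7, 65.7 and 95.1 CPM in KO libraries and 118, 168 and 244 CPM in Ctrl libraries (lowest, median, highest), without overlap. The mean was 67.5 ± 15.2 CPM in KO libraries and 174 ± 48.3 CPM in Ctrl libraries (SD, n = 7 each), or 38.7% of the Ctrl level, with a log2 fold change of -1.37 (SE 0.170, edgeR adjusted p = 1.6e-05). It was -1.49 in the 10 remaining libraries, and -1.18 in library indices 7 to 10. Macrophages are also known to express Ucp2; the median sum of the macrophage markers was 85.8 CPM in KO libraries and 37.3 CPM in Ctrl libraries, and their part in the Ucp2 level was not tested.

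Ucp3, the neighbour of Ucp2 on chromosome 7 (100472991 to 100486432, plus strand), varied widely within both groups. It had 11.3, 42.3 and 73.8 CPM in KO libraries and 33.8, 59.4 and 144 CPM in Ctrl libraries, which overlap. Its log2 fold change of -0.65 did not pass the test (SE 0.343, adjusted p = 0.18, 95% interval -1.37 to 0.07). In library indices 7 to 10 alone Ucp3 was called lower (-0.68, edgeR adjusted p = 0.0067), while in the 10 remaining libraries it was not (-0.65, adjusted p = 0.30). Leaving out single libraries moved the value between -0.81 and -0.38 (without Ctrl 2), and none of these fits called it. The Ucp2 to Ucp3 ratio did not separate the groups either (log2 difference -0.67, two-sided exact permutation p = 0.19, adjusted over the 7 pairs 0.33). Ucp1 had 0 counts in KO libraries and 1 count in Ctrl libraries, too few for a fold, while the fat cell markers Plin1, Cfd, Lep and Retn were at 0 counts and Adipoq at 1. Of the other 2 genes on that list Cidec had 1 count in each group, and Cidea was detected in every library, with 28.6 to 49.8 CPM in KO libraries and 33.7 to 41.4 CPM in Ctrl libraries (log2 fold change 0.17, edgeR adjusted p = 0.27).

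The members known as Ucp5 (Slc25a14), Ucp4 (Slc25a27) and the kidney carrier KMCP1 (Slc25a30), named for their likeness to uncoupling proteins, were scarce. Slc25a14 (chromosome X, 48623580 to 48662294, plus strand) had 1.72, 2.90 and 4.13 CPM in KO libraries and 1.10, 1.57 and 1.97 CPM in Ctrl libraries, so that 6 of 7 KO libraries exceeded every Ctrl library. It was called higher (log2 fold change 0.97, SE 0.222, edgeR adjusted p = 0.0033), at 0.99 in the 10 remaining libraries and 0.88 in library indices 7 to 10, where the call was lost (adjusted p = 0.16). Slc25a27 averaged 3.66 ± 1.05 CPM in KO libraries and 2.33 ± 0.846 CPM in Ctrl libraries (SD, n = 7 each) and missed the threshold (log2 fold change 0.62, adjusted p = 0.066). Slc25a30 was not called (0.40, adjusted p = 0.39).

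The di- and tricarboxylate carriers gave 1 lower and 1 higher call among 3 tested genes, against 13.7% and 14.5% of all genes tested. Slc25a11, which exchanges 2-oxoglutarate for malate in the malate-aspartate shuttle (chromosome 11, 70644027 to 70647039, minus strand), had 671, 752 and 942 CPM in KO libraries and 995, 1127 and 1273 CPM in Ctrl libraries, without overlap. It fell with a log2 fold change of -0.51 (SE 0.0809, adjusted p = 1.8e-04, edgeR), with -0.51 in the 10 remaining libraries and -0.54 in library indices 7 to 10. Slc25a1, which exports citrate for cytosolic lipid synthesis (chromosome 16, 17925211 to 17928219, minus strand), had 4.47, 7.20 and 8.05 CPM in KO libraries and 2.52, 3.84 and 4.72 CPM in Ctrl libraries. It rose with a log2 fold change of 0.92 (SE 0.162, edgeR adjusted p = 4.3e-04), and 6 of 7 KO libraries exceeded every Ctrl library. The value was 1.04 in the 10 remaining libraries and 0.59 in library indices 7 to 10, where the call was lost (edgeR adjusted p = 0.19). The dicarboxylate carrier Slc25a10 was not called (-0.20, adjusted p = 0.066).

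Of the amino acid and glutathione carriers 3 of 9 were lower and 1 higher, against 13.7% and 14.5% of all genes tested. Among genes with a mean log2 CPM of 6 or more 31.1% were lower. The class median log2 fold change was -0.20. The aspartate/glutamate carriers Slc25a12 (aralar) and Slc25a13 (citrin), which bind calcium and complete the malate-aspartate shuttle, were both called lower. Slc25a12 (chromosome 2, 71274295 to 71367554, minus strand) had 319, 377 and 388 CPM in KO libraries and 409, 444 and 463 CPM in Ctrl libraries, without overlap (log2 fold change -0.27, SE 0.0561, adjusted p = 0.0017, edgeR), and the value was -0.24 in the 10 remaining libraries and -0.39 in library indices 7 to 10. Slc25a13 (chromosome 6, 6041218 to 6217173, minus strand) had 166, 203 and 250 CPM in KO libraries and 218, 249 and 266 CPM in Ctrl libraries. Its call at a log2 fold change of -0.27 (adjusted p = 0.026) was lost without KO 4, KO 5, Ctrl 1 or Ctrl 2 (adjusted p = 0.052 to 0.060). The fold change was -0.36 in library indices 7 to 10 and -0.25 in the 10 remaining libraries, where the call was lost too (edgeR adjusted p = 0.067). The Slc25a13 to Slc25a12 log2 ratio averaged -0.95 ± 0.172 in KO libraries and -0.94 ± 0.0770 in Ctrl libraries (SD, n = 7 each), a difference of -0.0029 with a two-sided exact permutation p of 0.97.

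The glutathione carrier Slc25a39 and its paralog Slc25a40 diverged. Slc25a39 (chromosome 11, 102402976 to 102407517, minus strand) had 208, 244 and 363 CPM in KO libraries and 181, 201 and 232 CPM in Ctrl libraries, and 6 of 7 KO libraries exceeded every Ctrl library. It rose by 0.37 on the log2 scale (SE 0.0995, edgeR adjusted p = 0.0099). The rise was 0.39 in the 10 remaining libraries and 0.29 in library indices 7 to 10, where the call was lost (edgeR adjusted p = 0.11). Slc25a40 (chromosome 5, 8422850 to 8454793, plus strand) had 9.62, 10.1 and 11.2 CPM in KO libraries and 11.1, 13.4 and 14.9 CPM in Ctrl libraries (log2 fold change -0.34, SE 0.0887, edgeR adjusted p = 0.0076). It had -0.41 in the 10 remaining libraries and -0.21 in library indices 7 to 10, where the call was lost (adjusted p = 0.55). The Slc25a40 to Slc25a39 ratio per kb was 0.0244 in KO libraries and 0.0394 in Ctrl libraries and did not overlap between them. The difference in log2 ratio was -0.69 (two-sided exact permutation p = 0.00058, the smallest it can give, adjusted over the 7 pairs 0.0020), -0.77 in the 10 remaining libraries, and -0.49 in library indices 7 to 10.

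The other amino acid carriers were not called. Slc25a22, a glutamate carrier (chromosome 7), averaged 61.3 ± 9.64 CPM in KO libraries and 70.3 ± 12.7 CPM in Ctrl libraries (SD, n = 7 each; log2 fold change -0.20, edgeR adjusted p = 0.24, and -0.12 without KO 7), and its paralog Slc25a18 had only 10 counts in all, too few for their ratio to be read. The ornithine carrier Slc25a15 (-0.18, adjusted p = 0.054, called lower under 2 other scalings), the basic amino acid carrier Slc25a29 (-0.23), the glycine carrier Slc25a38 (0.04) and the branched-chain amino acid carrier Slc25a44 (0.03) had the log2 fold changes given.

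Slc25a20 (chromosome 9, 108662098 to 108684641, plus strand), the carnitine/acylcarnitine carrier through which long-chain fatty acids reach the matrix, was lower in every KO library. It had 184, 230 and 252 CPM in KO libraries and 259, 313 and 357 CPM in Ctrl libraries (log2 fold change -0.47, SE 0.0807, adjusted p = 3.4e-04, edgeR). That value was -0.47 in the 10 remaining libraries and -0.52 in library indices 7 to 10. The enzymes that work with these shuttles gave 6 lower and no higher calls among 8 tested genes, with a median log2 fold change of -0.32. Their summed level was 7958 to 10137 CPM in KO libraries and 10163 to 12962 CPM in Ctrl libraries. Over all genes tested 13.7% were lower. The share was 31.1% among genes with a mean log2 CPM of 6 or more, a level that the 6 lower enzyme genes exceeded. Aspartate aminotransferase Got2 had a log2 fold change of -0.54 and malate dehydrogenases Mdh1 and Mdh2 of -0.36 and -0.37. Carnitine palmitoyltransferase Cpt2 had -0.49, while Cpt1a (-0.05) and Cpt1b (0.02) were not called.

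Of 8 tested carriers of cofactors and pyrimidine nucleotides, 2 were higher and 2 lower, against 14.5% and 13.7% of all genes tested. The class median log2 fold change was -0.03, and 0.0054 in the 10 remaining libraries. Slc25a33 and Slc25a36, which import pyrimidine nucleotides for mitochondrial DNA and RNA synthesis, were both called higher. Slc25a33 (chromosome 4, 149744036 to 149774267, minus strand) had 36.4, 57.4 and 101 CPM in KO libraries and 31.3, 35.8 and 53.1 CPM in Ctrl libraries, overlapping in its 2 lowest KO libraries (log2 fold change 0.74, SE 0.204, adjusted p = 0.012, edgeR). Slc25a36 (chromosome 9, 97077011 to 97111041, minus strand) had 36.1, 39.8 and 59.7 CPM in KO libraries and 25.9, 29.5 and 35.7 CPM in Ctrl libraries, without overlap (log2 fold change 0.51, SE 0.109, adjusted p = 0.0022). Their log2 fold changes were 0.80 and 0.53 in the 10 remaining libraries. In library indices 7 to 10 they were 0.48 and 0.39, and both calls were lost (edgeR adjusted p = 0.11 and 0.098). Their ratio did not pass the test (log2 difference 0.19, exact permutation p = 0.36).

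The coenzyme A carrier Slc25a42 (chromosome 8, 70184340 to 70212281, minus strand) was called at -0.27 (adjusted p = 0.025), with 83.7 to 109 CPM in KO libraries and 89.4 to 135 CPM in Ctrl libraries. That call was lost without KO 4, KO 5, Ctrl 1 or Ctrl 7 (adjusted p = 0.053 to 0.062). The fold change of Slc25a42 was -0.29 in the 10 remaining libraries and -0.26 in library indices 7 to 10, where the call was lost (edgeR adjusted p = 0.20). Slc25a16, Slc25a17, Slc25a26 and Slc25a32 were not called and lay between -0.14 and 0.11 on the log2 scale. The last of them carries folate or flavins and Slc25a26 carries S-adenosylmethionine.

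Neither mitoferrin, the iron importers Slc25a28 and Slc25a37, was called (log2 fold changes 0.20 and -0.04, adjusted p = 0.11 and 0.85, edgeR). The Slc25a28 to Slc25a37 ratio per kb was 5.74 in KO libraries and 4.81 in Ctrl libraries (exact permutation p = 0.13). Among members without an assigned substrate, Slc25a34 (chromosome 4, 141618825 to 141623834, minus strand) was lower, with 89.5, 109 and 145 CPM in KO libraries and 128, 166 and 198 CPM in Ctrl libraries (log2 fold change -0.56, SE 0.112, adjusted p = 0.0013), and 6 of 7 KO libraries lay below every Ctrl library. Slc25a34 had -0.56 in the 10 remaining libraries and -0.58 in library indices 7 to 10. Its paralog Slc25a35 had -0.31 (adjusted p = 0.084). Slc25a46, a protein of the outer mitochondrial membrane (-0.21, adjusted p = 0.11), Slc25a47 (0.44, adjusted p = 0.15) and Slc25a45 (0.23, adjusted p = 0.78) were not called.

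**Figure D4:**
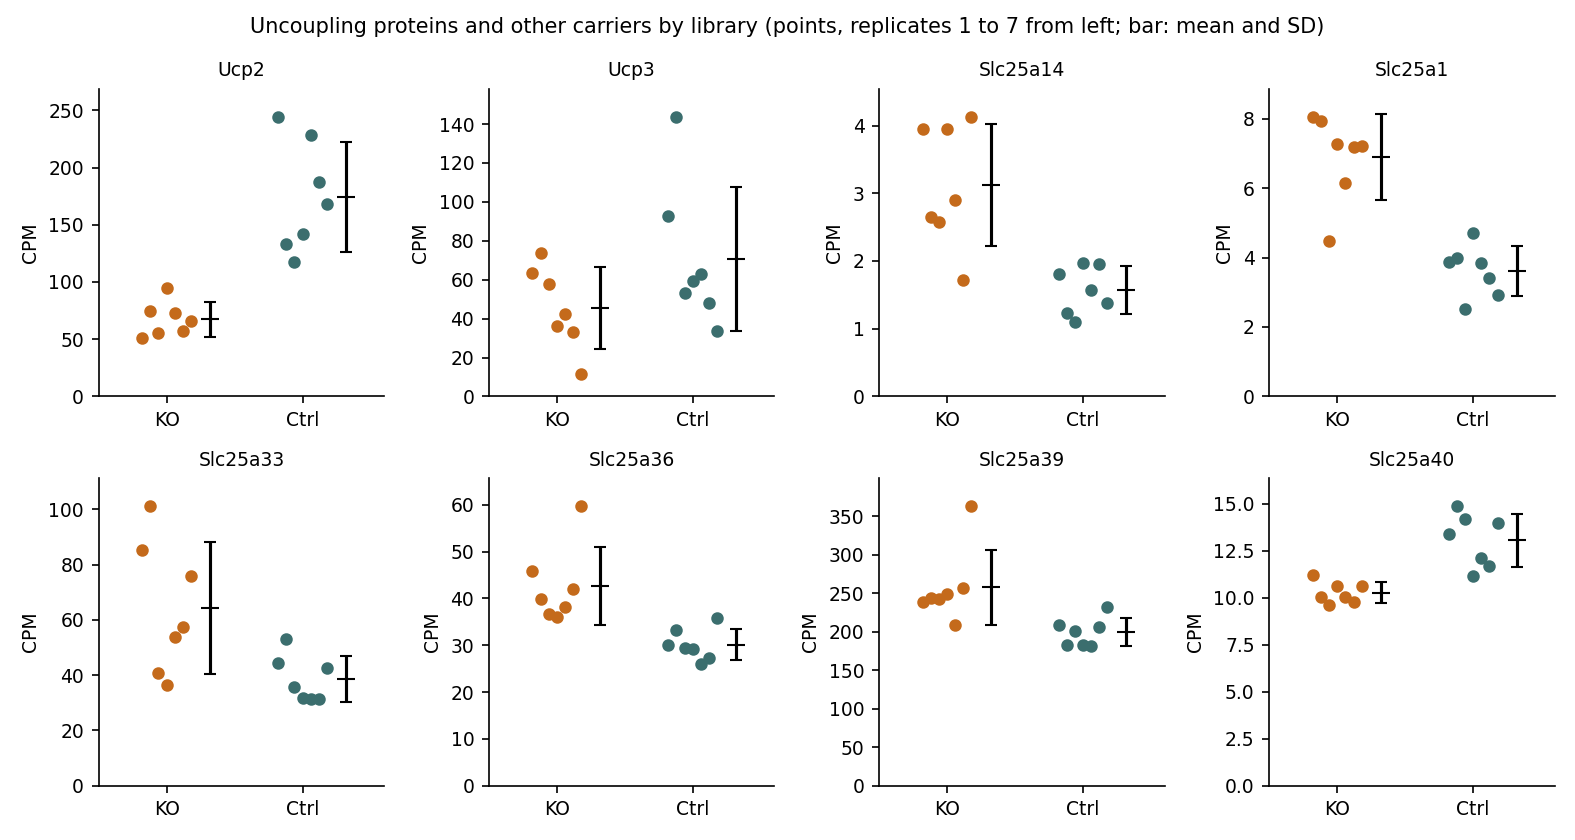
Levels in CPM of Ucp2, Ucp3, Slc25a14, Slc25a1, Slc25a33, Slc25a36, Slc25a39 and Slc25a40 in the 7 KO and 7 Ctrl libraries (points, with mean and SD). The groups do not overlap for Ucp2, at 50.7 to 95.1 CPM in KO libraries and 118 to 244 CPM in Ctrl libraries, nor for Slc25a36, and they overlap for Ucp3.

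Promoters are shown for 4 of the 6 genes called higher, picked because they share a short sequence. Slc25a23 and Slc25a39, also called higher, lack it and are not shown. RefSeq windows of 250 bases before to 50 after each start site (GRCm38.p6) matched 31 of the 39 genes, and 7 short motifs were looked for on both strands after the calls were known. The letters CACGTG, the E-box core read by MYC, USF and related factors, were found in 4 of the 6 genes called higher, in 1 of 10 called lower (Slc25a13) and in 1 of 15 not called (Slc25a15). They stood in 8.09% of all 27025 genes with such a window, and among genes tested in 15.2% of those called higher, 10.1% of those called lower and 12.1% of the rest. Capitals mark CACGTG in the 4 windows. Slc25a14 has 3 windows, of which the one nearest its start in the files is shown.
Slc25a33 (chr4:149774218-149774517, minus strand): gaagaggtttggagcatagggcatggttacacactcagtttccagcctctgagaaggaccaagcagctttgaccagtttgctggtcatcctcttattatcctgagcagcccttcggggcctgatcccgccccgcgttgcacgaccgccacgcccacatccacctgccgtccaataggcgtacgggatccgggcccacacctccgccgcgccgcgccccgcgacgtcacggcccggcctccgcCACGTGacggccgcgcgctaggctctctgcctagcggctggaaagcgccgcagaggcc
Slc25a36 (chr9:97110992-97111291, minus strand): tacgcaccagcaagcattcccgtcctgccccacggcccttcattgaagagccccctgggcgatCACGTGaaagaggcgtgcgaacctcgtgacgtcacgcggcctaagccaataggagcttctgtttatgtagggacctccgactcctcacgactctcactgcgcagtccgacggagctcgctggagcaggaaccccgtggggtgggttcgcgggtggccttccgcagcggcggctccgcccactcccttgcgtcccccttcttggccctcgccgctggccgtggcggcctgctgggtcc
Slc25a1 (chr16:17928170-17928469, minus strand): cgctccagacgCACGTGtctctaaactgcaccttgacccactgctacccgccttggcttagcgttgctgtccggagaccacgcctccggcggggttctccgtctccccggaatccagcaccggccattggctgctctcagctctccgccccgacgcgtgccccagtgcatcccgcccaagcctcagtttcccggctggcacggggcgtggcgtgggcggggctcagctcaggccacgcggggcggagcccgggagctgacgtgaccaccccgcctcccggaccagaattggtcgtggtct
Slc25a14 (chrX:48623328-48623627, plus strand): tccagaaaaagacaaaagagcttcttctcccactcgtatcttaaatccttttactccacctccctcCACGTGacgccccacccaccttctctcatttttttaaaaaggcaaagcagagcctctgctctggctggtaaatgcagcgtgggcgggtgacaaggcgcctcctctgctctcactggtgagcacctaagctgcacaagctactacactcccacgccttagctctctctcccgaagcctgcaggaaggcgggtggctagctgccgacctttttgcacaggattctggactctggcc
The match began 8 bases before the annotated start site in Slc25a33 and 187, 239 and 184 bases before it in Slc25a36, Slc25a1 and Slc25a14. The letters TGACGTCA were found in Slc25a36 and Slc25a25 (2.03% of all genes with a window), AAGGTCA in Slc25a34 (5.38%) and AGATAA in Slc25a5 and Slc25a22 (12.7%). TGATGCAA (1.03%) was in none of the 31, nor was the NRF1 motif (1.07%), and the MEF2 motif was in Slc25a22 and Slc25a10 (4.23%). A match describes these letters and not a bound site.

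Of 12 tested genes for other mitochondrial membrane transport proteins, 3 were lower and 2 higher, with a median log2 fold change of -0.09. Over all genes tested 13.7% were lower and 14.5% higher. The pyruvate carrier genes Mpc1 and Mpc2 were sought as well, but the counts do not hold these symbols, so neither is among the 12. Under its older symbol Brp44, Mpc2 was called lower (log2 fold change -0.63, edgeR). Mtch2, a distant outer membrane relative of the carriers (-0.38), the inner membrane exchanger Letm1 (-0.37) and the transporter Abcb10 (-0.41) were lower. The serine carrier Sfxn1 rose, with 7.90 to 10.6 CPM in KO libraries and 3.90 to 6.30 CPM in Ctrl libraries (log2 fold change 0.93), and Tspo rose with 0.71.

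Some exons of Slc25a25, Slc25a26 and Slc25a35 overlap exons of Naif1, Lrig1 and Rangrf on the opposite strand. The SMART-Seq v4 and Nextera XT kits named in the labels do not mark strand, so reads that fall wholly within an overlap cannot be told apart. The 8 family genes under the count minimum held few or no reads. Slc25a31, the ADP/ATP carrier of testis, had 14 counts in KO libraries and 17 in Ctrl libraries, and Slc25a43 had 12 in KO and 7 in Ctrl libraries. Over all libraries Slc25a2 and Slc25a18 had 10 counts each, Slc25a21 had 3, Slc25a41 had 2 and Slc25a48 had 0. The authors' deposited table gave the same 6 positive and 11 negative calls at an adjusted p under 0.05 among the 39 genes.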

How the data were processed

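RNA was prepared with SMART-Seq v4 and Nextera XT kits, per the labels' protocols. The authors deposited 1 table of read counts per gene, whose headers name STAR output files and featureCounts columns, and per the submitters' processing notes the build was mm10. Their second deposited table holds a mean normalized signal, log2 fold changes, a test score and p-values for KO over Ctrl, and the submitters' processing notes name DESeq2. It was used only to compare calls.

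From the counts, genes passing filterByExpr were scaled by TMM and tested with edgeR 4.0.16 (limma 3.58.1, R 4.3.3), quasi-likelihood F test, KO against Ctrl, all 14 libraries, no covariate, adjusted over 11170 genes. A call is an adjusted p under 0.05. The scripts were tested on simulated counts. CPM use TMM library sizes. Paralog ratios and family shares used counts per kb of exon and exact permutation tests (Python 3.11.15, numpy 2.4.6, pandas 2.3.3), with 0.5 added to counts in the ratios. Alternatives were other scalings, DESeq2 1.42.0, other filters, a library index term, a replicate block and left-out libraries. Full values are given for the ADP/ATP and phosphate carriers, Ucp1 to Ucp3, members of paralog pairs, the leading members of each substrate class, and called members with an absolute log2 fold change of at least 0.5. Other called members were named as well, after their values were seen. The members, gene lists and tests were chosen with earlier results of these data known, and the promoter motifs after the calls were seen. The values of 1 member are not reported here, and it is counted in all totals.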

Additional observations from a re-analysis of the deposited data

Results flagged for a closer look

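Of 98 groups of 7 libraries examined, 8 had 1 library far from the others by Dixon's criterion, which chance alone gives in about 1 in 20 groups. KO 7 had the highest Slc25a39 level, 363 CPM, with the next KO library at 257 CPM. The same library had the highest Slc25a36 level (59.7 CPM, next 45.9 CPM) and the lowest Slc25a22 level (40.2 CPM, next 60.3 CPM). KO 3 had the highest Slc25a15 level (40.0 CPM, next 36.5 CPM) and the highest share of Slc25a4 in the family (70.8%, next 67.0%). KO 6 had the highest Slc25a44 level, 39.9 CPM, with the next at 32.1 CPM. Slc25a25 stood out in both groups, at 31.3 CPM in KO 4 (next 20.1 CPM) and at 29.7 CPM in Ctrl 5 (next 17.7 CPM), both of library indices 7 to 10. Without KO 7, Slc25a39 and Slc25a36 were still called higher.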

How the results depend on the processing

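All 17 called members kept their call with relative log expression or upper-quartile scaling, DESeq2, both other low-count filters, the library index term and the replicate block. Slc25a15 gained a call under both scalings and without KO 3, Ctrl 1 or Ctrl 5. Without library indices 7 to 10, Slc25a13 lost its call (adjusted p = 0.067, edgeR), Slc25a35 gained one (0.041), the amino acid class median moved to -0.16, the adenine nucleotide and phosphate median to -0.19, and Slc25a5 to -0.013 (-0.0042 with DESeq2). Within those 4 libraries alone, 9 of 17 calls were kept, and Slc25a40, Slc25a42 and the 6 members called higher lost theirs. Ucp3 gained a call there (-0.68), and 10 members were lower and 0 higher (edgeR, 6 at an unadjusted p under 0.05). Calls over all genes came to 689 higher and 777 lower, Slc25a28 was -0.038 and Slc25a37 0.044, with fewer libraries tested. The Slc25a22 to Slc25a18 log2 ratio was -0.072 with a pseudocount of 2, -0.66 without indices 7 to 10 and 1.81 within them, resting on 10 counts of Slc25a18.

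Leaving out 1 library at a time gave 6 to 7 members higher and 9 to 13 lower, and over all genes 1433 to 1664 higher and 1284 to 1527 lower. Slc25a22 ranged from -0.25 to -0.12, Ucp3 from -0.81 to -0.38, the adenine nucleotide and phosphate median from -0.20 to 0.02, Slc25a5 from -0.038 to 0.052, Slc25a37 from -0.089 to 0.021, the Slc25a13 to Slc25a12 log2 ratio from -0.042 to 0.052 and Slc25a22 to Slc25a18 from -0.27 to 0.39.

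KO and Ctrl share replicate numbers, but same-numbered deviations correlated at 0.061 for replicate 6 and 0.15 to 0.53 for the others, and not every library matched its own number best, so the numbers were not taken as pairs. With the replicate block Ucp3 (log2 fold change -0.66, edgeR adjusted p = 0.0021), Slc25a46 and Slc25a27 were called as well. In the paired sign-flip test the Slc25a5 to Slc25a4 and Slc25a40 to Slc25a39 differences stayed 0.69 and -0.69 with an exact adjusted p of 0.055, where the smallest unadjusted p is 0.016.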
